A study of Mus musculus with 60 samples.

Results

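The Lachnospiraceae NK4A136 group and the Lachnospiraceae that carry no genus name were followed through stool, colon, lung and mouth of mice given nanoplastic particles. A member is a 16S rRNA sequence variant (here a feature) whose deposited lineage places it in the family Lachnospiraceae and either in the NK4A136 group or under no genus name, meaning no genus part or a genus part written as uncultured. Of 8574 features in the table, 770 were members. The NK4A136 group supplied 201 of them and the unnamed Lachnospiraceae 569, of which 409 had no genus part and 160 were written as uncultured. The rule reads the lineage only and uses no measured value. Features are numbered within each taxon by their total counts, so NK4A136 feature 1 and unnamed feature 1 are the most abundant of their kind.

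Lachnospiraceae are strictly anaerobic Clostridia of the large bowel that ferment plant fibre and host mucus, and many of them make butyrate, the short-chain fatty acid on which colon epithelium feeds. The NK4A136 group is a database genus named after an isolate and is common in laboratory mice. The unnamed part is not a genus at all: it collects whatever sequence falls in the family without matching a named genus, so it can hold many unrelated lineages. A feature is not an organism either, because 1 bacterium can carry several copies of the 16S gene that differ in sequence.

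The study used 12 male mice, 6 of them controls that received no particles and 6 given polyethylene terephthalate (PET) nanoplastics by gavage, 0.5 mg in 0.1 ml each day for 28 days. Each arm gave 6 libraries of stool after 1 week, and 6 libraries each of stool, colon tissue, lung tissue and oral swab at day 28, which makes 60 libraries in 10 groups of the V3 and V4 part of the 16S gene. The sources used here do not give the strain, the age or what controls were gavaged with. Tissue DNA (colon, lung) was extracted with another kit than stool and swab DNA, so for these sites kit and site cannot be told apart. No blank library was analysed here. Libraries carry running numbers with no link to an animal, so no library of 1 site was paired with one of another, and p-values here reflect only how much these libraries vary.

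Library totals ran from 10543 to 1083575 counts, and group medians from 45970 (lung, PET) to 458660 (day 28 stool, control). Bacterial and archaeal features, called prokaryote here, held 99.3% of all counts and are the base of every share below. Counting alone left the summed member share of a library uncertain by at most ±0.605 percentage points (Wilson 95% interval, for counting error only). Helicobacter, a spiral bacterium of the mucus layer, made up 65.0% ± 27.6 (SD, n = 12) of colon counts and ranged from 12.4% to 96.4% between colon libraries. A share is relative: it falls when a taxon has fewer cells or when other taxa have more. A share alone cannot tell these apart, nor fewer cells of a taxon from less of its DNA per cell. 4 libraries (day 28 stool control 6 and PET 6, lung control 5 and 6) carry numbers of a separate series, and day 28 stool PET library 6 comes back below as the stool library nearest to the oral swabs.

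The members were a large minority of the gut counts carried by few features. They held 13.5% of all prokaryote counts, 6.25% in the NK4A136 group and 7.26% in the unnamed Lachnospiraceae, against 3.44% in the 488 features of 54 named Lachnospiraceae genera. The 10 most abundant NK4A136 features held 63.1% of the group's counts, and the 10 most abundant unnamed features held 62.3% of theirs. Unnamed feature 1 alone held 26.7% of the unnamed counts, while NK4A136 feature 1 held 10.2% of its group. At the other end, 465 members (60.4%) were seen in 1 library each and together held 1.11% of the member counts. Only unnamed feature 1 was seen in all 60 libraries, and 260 members were seen in 3 or more. The placements were less certain for the NK4A136 group: 93 of its features (46.3%) had a deposited classifier confidence of at least 0.9, against 490 (86.1%) of the unnamed, whose confidence refers to the family or to the uncultured label.

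Both taxa were stool bacteria in these mice and thin outside the gut. The NK4A136 group made up 9.29% ± 3.63 (SD, n = 12) of week 1 stool and 8.79% ± 2.87 of day 28 stool, then 4.85% ± 5.16 of colon, 0.946% ± 1.23 of lung and 0.390% ± 0.359 of oral swab counts. The unnamed Lachnospiraceae made up 7.61% ± 2.44, 12.5% ± 4.64, 5.05% ± 6.39, 0.766% ± 0.511 and 0.968% ± 0.854 of the same 5 sample types. With features of a classifier confidence of at least 0.9 alone, the NK4A136 group was 5.22% ± 2.52, 4.64% ± 1.43 and 2.38% ± 2.55 of week 1 stool, day 28 stool and colon. For both taxa, over all members, every stool library lay above every lung and every oral swab library. Colon lay between and reached from lung-like to stool-like values: the NK4A136 group ranged from 0.120% to 13.9% and the unnamed Lachnospiraceae from 0.0974% to 20.04%. The values of lung and oral swab overlapped in either taxon.

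**Figure D1:**
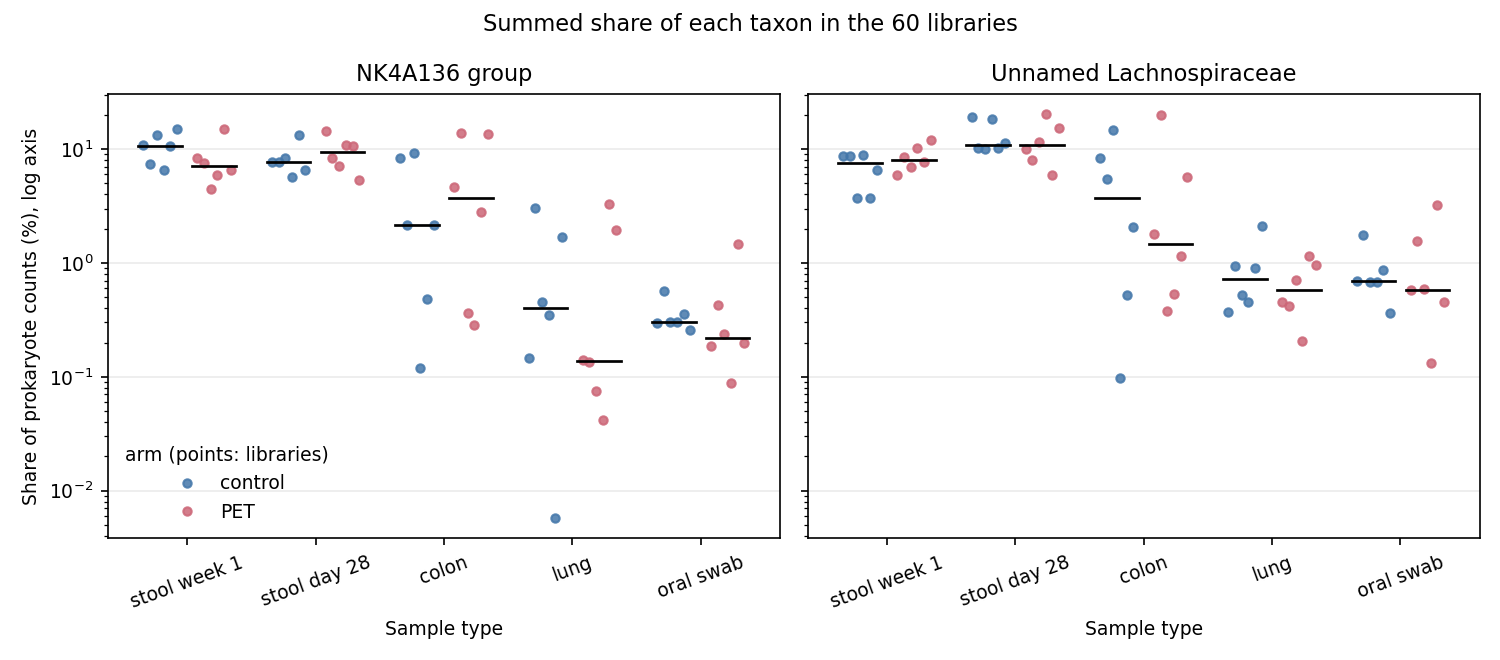
Summed share of the NK4A136 group (left) and of the unnamed Lachnospiraceae (right) as percent of prokaryote counts on a log axis, for 5 sample types and 2 arms; each point is a library and each black line the median of 6. Stool libraries lie between 3.73% and 20.4%, colon spreads from 0.0974% to 20.04%, and lung and oral swab libraries lie below all stool libraries, with the 2 arms overlapping at every site.

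The members also stood apart from their named relatives in where they were found. In stool they were most of the family, 84.5% of all Lachnospiraceae counts at week 1 and 83.3% at day 28, and in colon 74.7% and oral swab 66.7% on average. In lung they were 13.6%, and there named genera held 10.3% of the counts against 1.71% for the members. The number of member features followed the same order as the shares except between lung and mouth. At a common depth of 10000 counts a library was expected to show 84.5 ± 29.7 member features in week 1 stool (SD, n = 12), 96.8 ± 13.7 in day 28 stool, 45.6 ± 31.9 in colon, 26.7 ± 12.0 in oral swab and 14.04 ± 7.80 in lung. The most abundant member of a library held 19.5% of its member counts in week 1 stool and 30.8% in lung on average.

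The colon shares stood beside the Helicobacter counts given above. Counted without Helicobacter, the NK4A136 group was 12.4% ± 8.69 of colon and 9.25% ± 3.04 of day 28 stool (n = 12 each), and the unnamed Lachnospiraceae 11.8% ± 9.76 and 13.2% ± 4.76. Both differences were smaller than the spread between colon libraries. Tested as 1 genus each among all genera (edgeR quasi-likelihood test with TMM scaling, Benjamini-Hochberg), neither taxon passed between colon and day 28 stool: the log2 difference was 0.84 ± 0.63 (SE) for the NK4A136 group (adjusted p = 0.31) and 0.30 ± 0.68 for the unnamed (adjusted p = 0.80), where 32.4% of the genera tested passed. The sign of both values rests on the scaling: with plain library totals they were -0.89 and -1.31. Helicobacter itself was higher in colon by 6.46 on the log2 scale in that fit.

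Feature by feature, the members that differed between colon and day 28 stool were unnamed Lachnospiraceae. Of 159 unnamed features tested, 1 was higher and 21 were lower in colon, while 0 of 54 NK4A136 features passed (2 had an unadjusted p under 0.05 and DESeq2 called 0, TMMwsp scaling 1 and plain library totals 2). Whether the 2 taxa differ in this was not tested. Over all features 19.1% passed, 4.38% higher and 14.7% lower, against 10.3% of the members tested. DESeq2 called 14 members here, and with control libraries alone 0 passed. Of the 21 lower features 19 were at 0 in all 12 colon libraries. These met the filter on low counts (at least 10 counts in all and presence in at least 3 libraries) only through stool. Colon libraries were shallower, at a median of 130370 prokaryote counts against 446180 in day 28 stool. Helicobacter held 65.0% of the colon counts on average, which leaves fewer counts for rare features. Unnamed feature 31 was seen in 5 of 12 day 28 stool libraries with a mean of 0.0533%, at least 306-fold above the colon floor (3 counts over the summed colon total; adjusted p = 0.00253, edgeR). Unnamed feature 52, in 8 of 12 stool libraries, was at least 176-fold higher in stool, and unnamed feature 94, in 10 of 12, at least 106.9-fold. Neither had a single count in colon. The 1 feature higher in colon, unnamed feature 147, was at 0 in day 28 stool and present in 4 colon libraries, at least 170-fold over the stool floor (adjusted p = 0.00552, edgeR). It met that filter only through colon.

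Lung and mouth held far less of most stool members. In lung 168 of 198 members tested (84.8%) were lower than in day 28 stool and 10 (5.05%) higher, where over all features 90.2% passed, 57.9% lower and 32.3% higher. Of the 198 members 152 were at 0 in all libraries of 1 side and met the filter only through the other, as were 814 of all 1157 features. Lung libraries were shallower, at a median of 54414 prokaryote counts against 446180 in day 28 stool. In oral swab 82 of 206 (39.8%) were lower and 5 (2.43%) higher, where 56.1% of all features passed, 30.7% lower and 25.4% higher. Here 89 of the 206 members and 405 of all 1009 features were at 0 in all libraries of 1 side. The oral count rests on the scaling: 24 NK4A136 and 63 unnamed members passed with TMM and 37 and 92 with TMMwsp, while 161 members were lower and 5 higher with plain library totals and 14 were lower with control libraries alone. The members thus passed about as often as features at large in lung, but more of their calls were lower and fewer higher. Members called higher were few beside named Lachnospiraceae, of which 43.5% were higher in lung and 36.4% in oral swab. The median log2 difference, with features at 0 set to their bound, was -5.76 over members and -4.21 over all features in lung, and -3.51 and -1.91 in oral swab. These 3 site comparisons share the 12 day 28 stool libraries. As 1 genus each, the NK4A136 group was lower in lung by a log2 difference of -4.10 ± 0.75 (adjusted p = 9.6e-06) and the unnamed Lachnospiraceae by -5.03 ± 0.61 (adjusted p = 7.5e-09), where 83.3% of genera passed.

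In oral swab the NK4A136 group was lower by -0.94 ± 0.28 on the log2 scale (adjusted p = 0.0048), and the unnamed Lachnospiraceae did not pass at -0.24 ± 0.28 (adjusted p = 0.44), where 70.5% of genera passed. These values are small beside the drop in share and depend on the scaling. With plain library totals the unnamed value was -3.71, and the median over all features moved from -1.91 to -4.73. The share of higher calls among all features called moved with it, from 45.2% to 23.3%. For colon that share was 22.95% with TMM, 32.3% with library totals and 40.9% with the TMMwsp variant.

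Stool itself was a patchwork, with few of its most abundant members seen in every stool library. Unnamed feature 1 was the most abundant in stool at 2.65% ± 2.22 (SD, n = 24) and ran from 0.0187% to 7.67%. NK4A136 feature 5 was the only other of the 12 most abundant stool members to be seen in all 24 stool libraries, at 0.0522% to 1.77%. The others were each missing from 1 or more libraries. NK4A136 feature 3 was seen in 11 of 12 libraries at week 1 and all 12 at day 28, and unnamed feature 4 in all 12 and 11 of 12. Unnamed feature 2 and NK4A136 feature 2 were in all 12 at week 1 and in 8 and 9 of 12 at day 28. Unnamed feature 2 ranged from 0% to 5.83% and NK4A136 feature 1 from 0% to 4.09%. NK4A136 feature 6 reached 8.36% in day 28 PET library 1, where its median over 24 stool libraries was 0.0918%. Unnamed feature 5 was at 3.50% in day 28 control library 4 and at 2.74% in day 28 PET library 4, and was seen in 8 of 24 stool libraries in all.

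The make-up of the member counts differed widely between stool libraries. The Bray-Curtis distance, 0 for identical and 1 for non-overlapping make-up, was taken over the members' shares of the member counts. Its median was 0.663 between week 1 stool libraries and 0.664 between day 28 stool libraries. Between arms at day 28 the median was 0.665 and within arms 0.664, so the median did not separate the arms. At week 1 the same medians were 0.660 and 0.664.

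**Figure D2:**
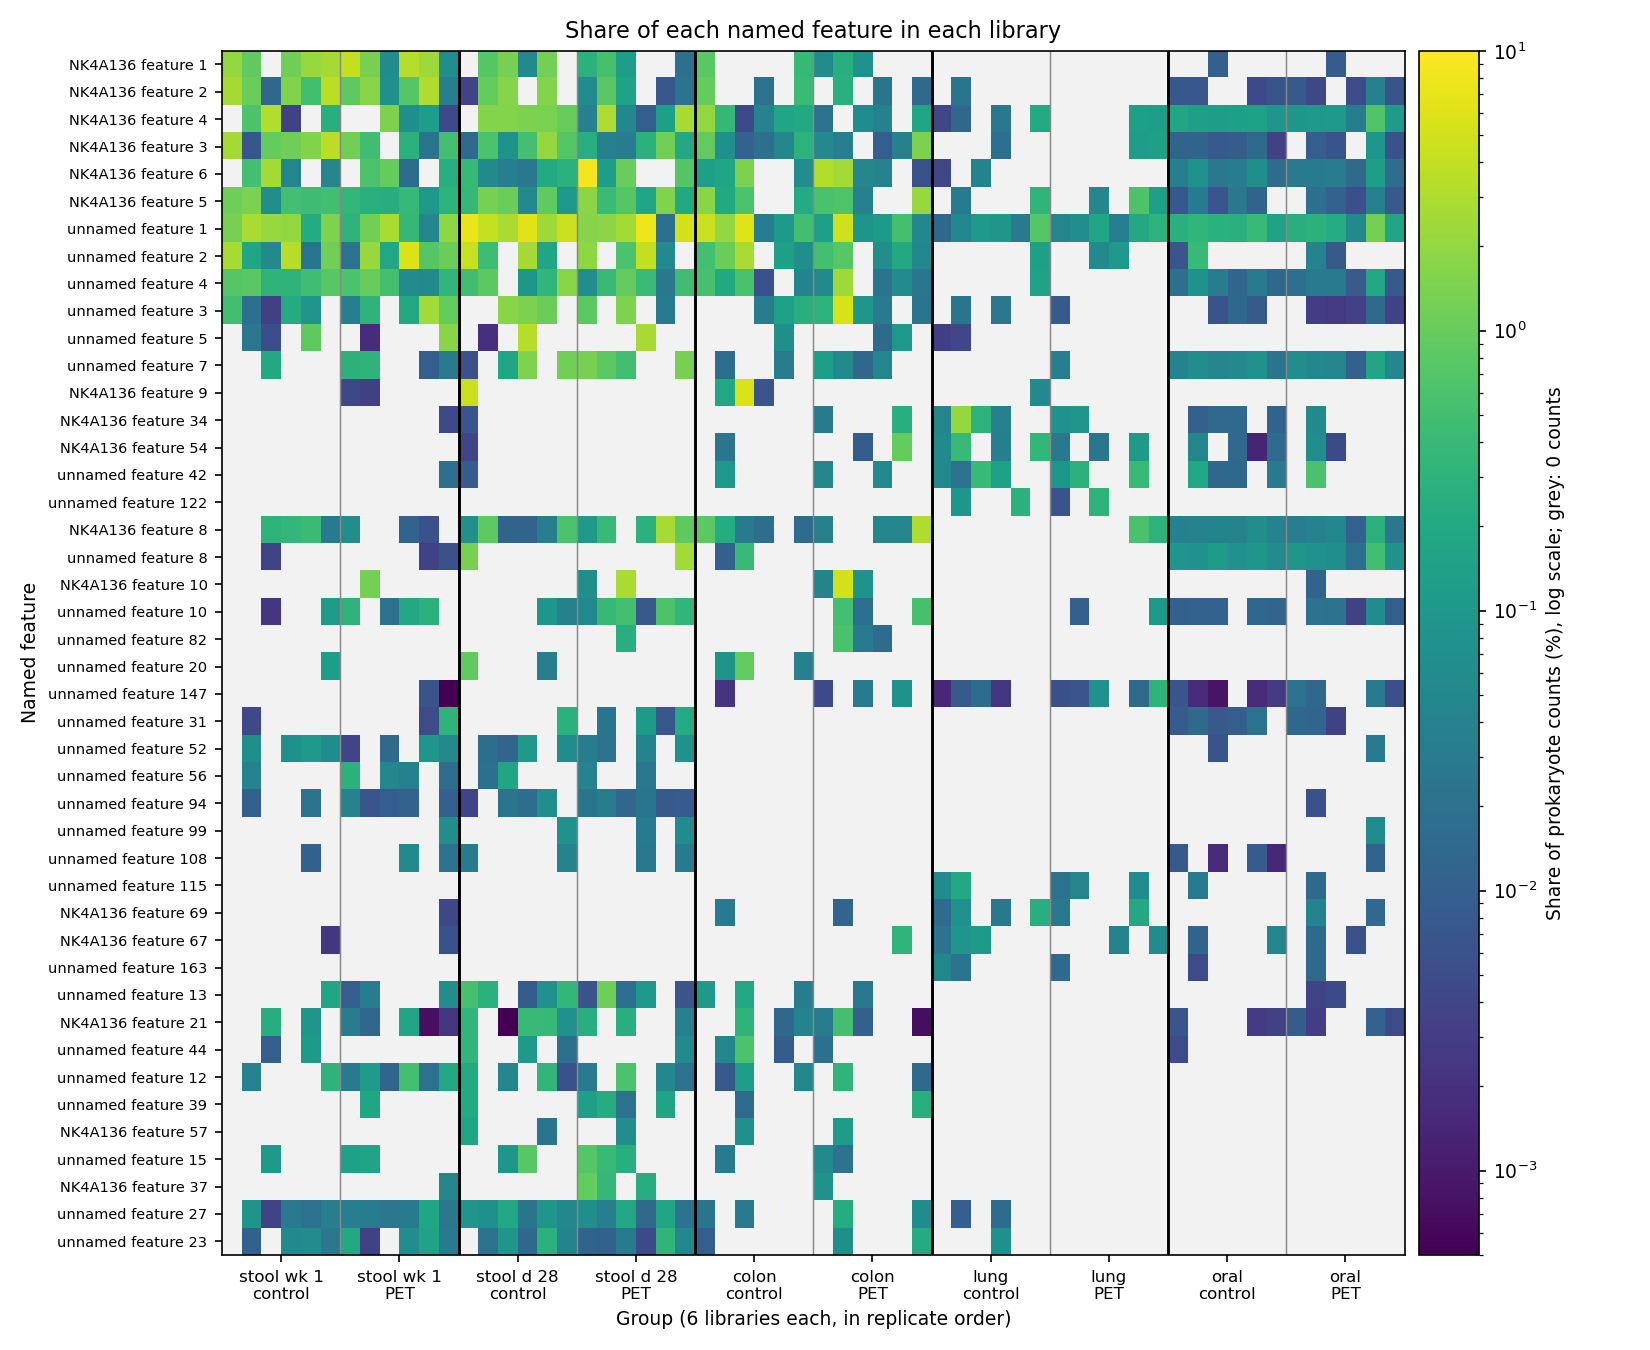
Share of prokaryote counts (percent, log colour scale, grey for 0 counts) of the 44 features named by rule, in the 60 libraries grouped by site and arm, 6 libraries each. Unnamed feature 1 is coloured in every column; most other features are present in some stool libraries and absent in others, and a block of features including NK4A136 features 34 and 54 and unnamed feature 42 is coloured in lung, oral swab and a few colon libraries but in at most 2 of 24 stool libraries.

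Some members kept a nearly fixed ratio to each other in stool. Among 95 features with enough counts in stool (at least 10 counts of both features in at least 12 libraries), 2631 pairs could be compared, and the SD of the log2 ratio between stool libraries had a median of 2.17. In 57 pairs it was under 1. The tightest was unnamed feature 86 with unnamed feature 52, at a mean log2 ratio of -0.97 and an SD of 0.21 over 12 libraries. NK4A136 features 38 and 36 kept a log2 ratio of 0.03 with an SD of 0.25 over 14 libraries, and NK4A136 features 25 and 21 one of -0.50 with an SD of 0.33 over 13. These pairs, the tightest of the 2631, had Pearson correlations of their log2 shares of 0.98, 0.99 and 0.99. Another pair, with an SD of 0.62 over 12 libraries, had a correlation of 0.17. A low SD alone therefore does not show that 2 features rise and fall together. Pairs with a low SD are a description of these libraries. Whether both sequences of a pair come from 1 organism was not tested.

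Between week 1 and day 28 no member passed the test in stool. 0 of 228 members passed in controls, in PET mice or in the difference between them (edgeR; 39, 29 and 29 had an unadjusted p under 0.05), and 0% of all 964 features passed as well. DESeq2 called 22, 10 and 20 members. Unnamed feature 1 had a mean of 1.67% ± 0.897 (SD, n = 6) in week 1 controls and 4.64% ± 1.96 at day 28, and 1.12% ± 1.10 and 3.16% ± 2.79 in PET mice. Its log2 differences were 1.52 ± 0.93 (SE; adjusted p = 0.49) in controls and 1.49 ± 0.93 (adjusted p = 0.61) in PET mice. NK4A136 feature 1 had 1.87% ± 1.69 at week 1 and 0.165% ± 0.222 at day 28 in PET mice, a log2 difference of -3.53 ± 1.94 (adjusted p = 0.47). With features at 0 set to their bound, the median log2 difference was 0.80 over members and 0.58 over all features in controls, and 0.39 and 0.05 in PET mice.

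As 1 genus each, the taxa likewise did not pass, and 0% of 145 genera did. The NK4A136 group had a log2 difference of day 28 over week 1 of -0.74 ± 0.30 in controls (adjusted p = 0.24, edgeR) and 0.36 ± 0.29 in PET mice (adjusted p = 0.49). The difference between the arms in that change, 1.10 ± 0.42, had an adjusted p of 0.095 (edgeR). The unnamed Lachnospiraceae had log2 differences of 0.84 ± 0.29 in controls (adjusted p = 0.18, edgeR) and 0.49 ± 0.29 in PET mice (adjusted p = 0.26), and the 2 changes differed by -0.35 ± 0.41 (adjusted p = 0.77).

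Exposure to PET particles went with no detected change of either taxon in stool. At week 1 the NK4A136 group ran from 6.49% through a median of 10.7% to 15.1% in controls, and from 4.42% through 7.06% to 14.98% in PET mice. The unnamed Lachnospiraceae ran from 3.73% through 7.54% to 8.83% and from 5.95% through 8.08% to 12.0%. The arms overlapped in both taxa. Tested as genera, the log2 differences of PET over control were -0.67 ± 0.32 (SE; adjusted p = 0.48) and 0.26 ± 0.27 (adjusted p = 0.76), where 0% of genera passed (edgeR), as at day 28. At day 28 the NK4A136 group ran from 5.63% through 7.64% to 13.3% in controls and from 5.29% through 9.50% to 14.3% in PET mice, with a log2 difference of 0.19 ± 0.27 (adjusted p = 0.85). The unnamed Lachnospiraceae ran from 10.02% through 10.8% to 19.2% and from 5.96% through 10.8% to 20.4%, with a log2 difference of -0.14 ± 0.32 (adjusted p = 0.95). Here too the arms overlapped almost wholly.

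No single member passed in stool. 0 of 165 members tested passed at week 1 (14 had an unadjusted p under 0.05, and DESeq2 called 2), where 0% of 728 features passed. 0 of 188 passed at day 28 (13 under 0.05, DESeq2 called 4), where 0% of 737 passed. The median log2 difference was 0.48 over the members and 0.29 over all features at week 1, and 0.08 and 0.06 at day 28. Without the filter on low counts edgeR called 9 members at week 1 and 14 at day 28.

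No exposure difference was detected in lung or mouth either. In lung the NK4A136 group was 0.948% ± 1.19 in controls and 0.944% ± 1.38 in PET mice, and the unnamed Lachnospiraceae 0.886% ± 0.644 and 0.647% ± 0.354 (SD, n = 6 each). In oral swab the NK4A136 group was 0.346% ± 0.111 and 0.434% ± 0.517, and the unnamed Lachnospiraceae 0.843% ± 0.483 and 1.09% ± 1.15. All these arms overlapped. The genus log2 differences were -1.04 ± 1.35 and -0.62 ± 1.12 in lung (adjusted p = 0.9992 for both) and -0.29 ± 0.40 and -0.27 ± 0.41 in oral swab (adjusted p = 0.98 for both; edgeR), and 0% of genera passed in either. 0 of 17 members passed in lung and 0 of 55 in oral swab (edgeR; 1 under an unadjusted 0.05 in each, and DESeq2 called 0 in both), where 0% of 454 and 0% of 460 features passed. The 17 members tested in lung are those seen in enough libraries and are not all of its members.

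In colon 5 members passed between the arms, each of them present in 3 libraries of 1 arm, at 0 in the other 3 of that arm and at 0 in all 6 of the other arm. Each met the filter on low counts only through the arm that held it, and the 2 arms overlap at 0 in every case. The spread was estimated separately in each fit, so the colon count is not on the same footing as that of stool. Unnamed feature 10 in colon, at a log2 difference of 10.96 ± 3.03 (SE), had an unadjusted p of 0.00030 (edgeR). NK4A136 feature 37 in day 28 stool, present in 3 libraries, all of them PET, had 13.17 ± 3.58. Its unadjusted p was 0.0054 (edgeR, adjusted p = 0.33). The taxa as genera did not pass: the NK4A136 group was 3.76% ± 4.01 in controls and 5.94% ± 6.29 in PET mice, with a log2 difference of 0.63 ± 1.06 (SE; adjusted p = 0.90), and the unnamed Lachnospiraceae 5.17% ± 5.57 and 4.93% ± 7.66, with 0.31 ± 1.07 (adjusted p = 0.93). In the same fit 22 genera (15.8% of those tested) passed. Both values change sign with TMMwsp scaling, to -0.11 and -0.63. Helicobacter was 63.5% ± 34.6 of control and 66.6% ± 21.9 of PET colon. Of 96 members tested 3 were higher in PET colon and 2 lower. Over all 468 features 2.35% passed, 1.07% higher and 1.28% lower. The members' median log2 difference was 0.91 and that of all features 0.36.

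NK4A136 feature 10 was at 0.0422%, 5.11% and 0.0795% in PET colon libraries 1, 2 and 3 and at 0 in the other 3 and in every control, so its mean lay at least 2838-fold over the control floor (adjusted p = 0.0033, edgeR). Library 2 held 98.2% of its counts, and over the other 5 PET libraries the bound was 79.2-fold. In day 28 stool it was likewise in PET mice only, at 0.0686% in library 1 and 2.81% in library 3, and at week 1 in PET library 2 at 1.28%.

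NK4A136 feature 9 was the reverse case, at 0.179%, 5.73% and 0.00669% in control colon libraries 2, 3 and 4 and at 0 in all PET colon libraries (at least 2461-fold, adjusted p = 0.0033, edgeR). Library 3 held 96.8% of its counts, and without it the bound was 92.8-fold. In day 28 stool it was seen once, at 4.51% in control library 1, but at week 1 only in PET libraries 1 and 2, at 0.00427% and 0.00327%.

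Unnamed feature 10 was at 0.517%, 0.0186% and 0.570% in PET colon libraries 2, 3 and 6 (at least 600-fold over the control floor, and at least 349-fold without library 6; adjusted p = 0.042, edgeR). It was the only one of the 5 to be widespread in stool. At day 28 it was in all 6 PET stool libraries, at 0.00797% to 0.628% with a mean of 0.319% ± 0.246, and in 2 of 6 controls with a mean of 0.0211% ± 0.0367. The ranges overlap, and the stool log2 difference of 3.88 ± 2.10 did not pass (adjusted p = 0.9998, edgeR).

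The other 2 were rarer. Unnamed feature 20 was at 0.0851%, 0.918% and 0.0392% in control colon libraries 2, 3 and 6 (at least 433-fold, adjusted p = 0.043, edgeR; at least 62.0-fold without library 3), and in day 28 stool of controls 1 and 5 at 0.901% and 0.0352%. Unnamed feature 82 was at 0.574%, 0.0289% and 0.0165% in PET colon libraries 2, 3 and 4 (at least 336-fold, adjusted p = 0.046, edgeR; at least 29.6-fold without library 2), and in day 28 stool of PET library 3 at 0.244%.

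All 5 calls rest on 3 libraries each. When 1 colon library was left out at a time, each feature fell under the filter in the 3 fits without a library that held it. In the other 9 fits NK4A136 features 10 and 9 passed in 9 each, unnamed feature 10 in 4, and unnamed features 20 and 82 in 2 each. DESeq2 called the 3 unnamed features. It gave no adjusted p for 17 of the 96 members, NK4A136 features 10 and 9 among them, so it did not call these. Without Helicobacter counts NK4A136 features 10 and 9 passed and the 3 unnamed features did not (adjusted p = 0.057, 0.057 and 0.076 for features 10, 20 and 82, edgeR), and the same 2 passed without the filter on low counts. With a filter of 50 counts in 6 libraries none of them was tested and 0 members passed.

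**Figure D3:**
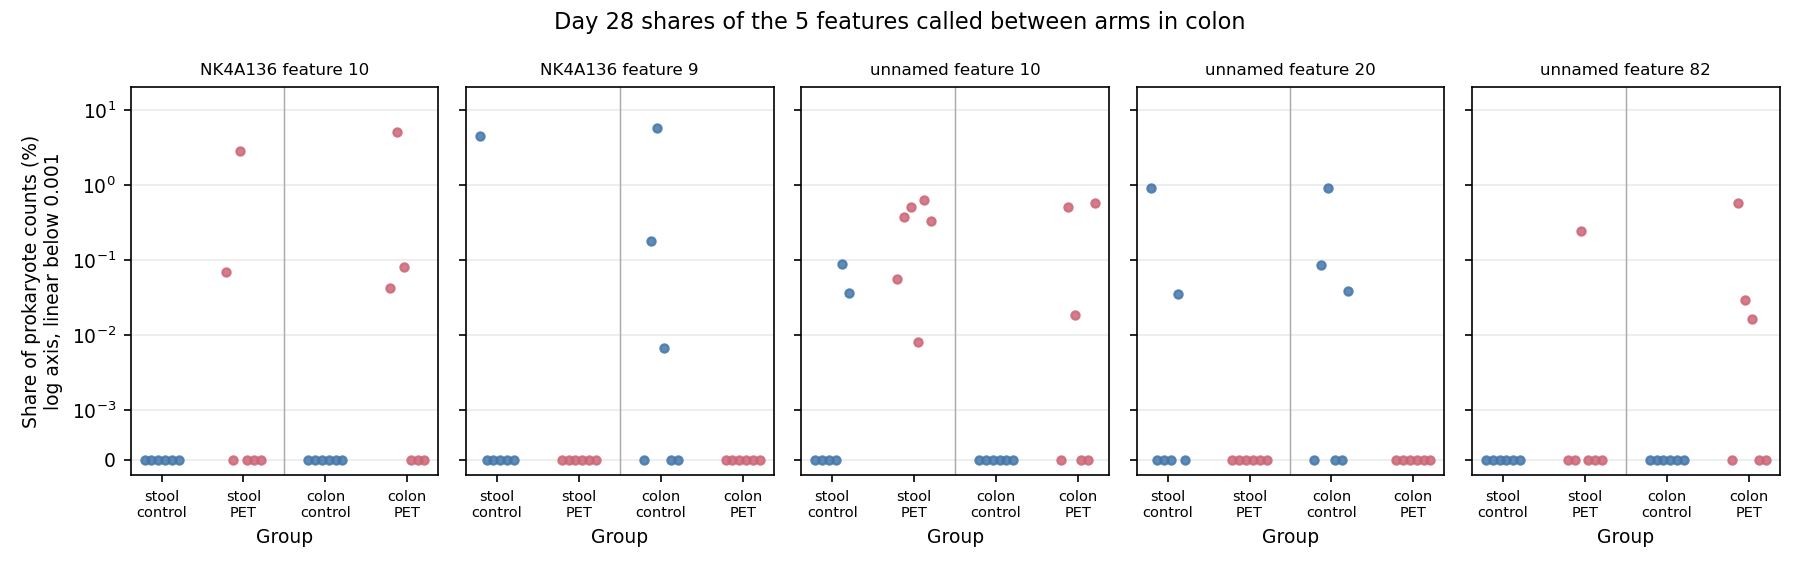
Day 28 share of prokaryote counts (percent; log axis, linear below 0.001) of the 5 features that passed between arms in colon, for stool and colon of controls (blue) and PET mice (red); each point is 1 of 6 libraries. In colon every feature is in 3 libraries of 1 arm and at 0 in the other arm, and in stool NK4A136 features 10 and 9 and unnamed features 20 and 82 are in 1 or 2 libraries of the same arm.

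Most members seen in colon or mouth were also seen in stool, fewer of those in lung, while most stool members were not seen at the other sites. Stool of both times held 677 members, and week 1 and day 28 shared 243 of them (51.2% of the 475 at week 1 and 54.6% of the 445 at day 28). Of 233 members in colon 216 were also in stool (92.7% of colon's and 31.9% of stool's). Of 166 in oral swab 72.9% were (17.9% of stool's), and of 100 in lung 51 were (7.53% of stool's). In all 4 sites 36 members were seen, and 442 were seen in stool alone. Sharing was not counted over all features, so these values have no background beside them. Stool had 24 libraries against 12 of each other site. Its libraries were also deeper, at a median of 446180 prokaryote counts at day 28 against 130370 in colon and 54414 in lung. The 465 members seen in 1 library each cannot be shared. The low shares of stool's members are therefore not read as a trait of the members.

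By counts lung stood further apart, and the medians of colon and mouth were alike. Features found in at least 3 stool libraries held a median of 97.4% of the member counts of a colon library (33.3% to 100%). The same value was 95.4% of an oral swab (48.3% to 97.7%) and 31.04% of a lung library (3.76% to 80.6%). The lowest colon library thus lay below the lowest oral swab and within the lung range. For the NK4A136 group alone the lowest colon value was 9.57%. Features found in no stool library held 24.1% of the lung member counts (median; 0% to 96.2%), 1.67% in oral swab and 0.0378% in colon. Lung also held the library with the fewest member counts of these 3 sites.

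Colon libraries mostly had their nearest stool library in day 28 stool of their own arm, at distances from near to far. The nearest stool library by member make-up was a day 28 library of the same arm in 11 of 12 cases, the exception being PET library 4, whose nearest was control library 6 at a distance of 0.591. The distance to the nearest had a median of 0.364 (0.165 to 0.591), against 0.573 for the second nearest. In 6 colon libraries it was under 0.3, lowest at 0.165 for control library 1 against stool control library 2, where 2 stool libraries of day 28 differed by a median of 0.664. With features outside the family the nearest was a day 28 library of the own arm in 5 of 12 cases, at distances of 0.540 to 0.930. That set takes in Helicobacter, on average 65.0% of colon and 4.94% of day 28 stool counts, which weighs on those distances. Whether the own-arm nearness is particular to the members was therefore not tested. The arm sharing is a count over libraries whose animals are unknown. In 8 of 12 colon libraries the nearest also stood at the same place in the order of running numbers of its group, as given under the other observations. Day 28 stool libraries of 1 arm were by median no nearer each other than those of different arms (0.664 and 0.665). What the arm sharing comes from was not tested.

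**Figure D4:**
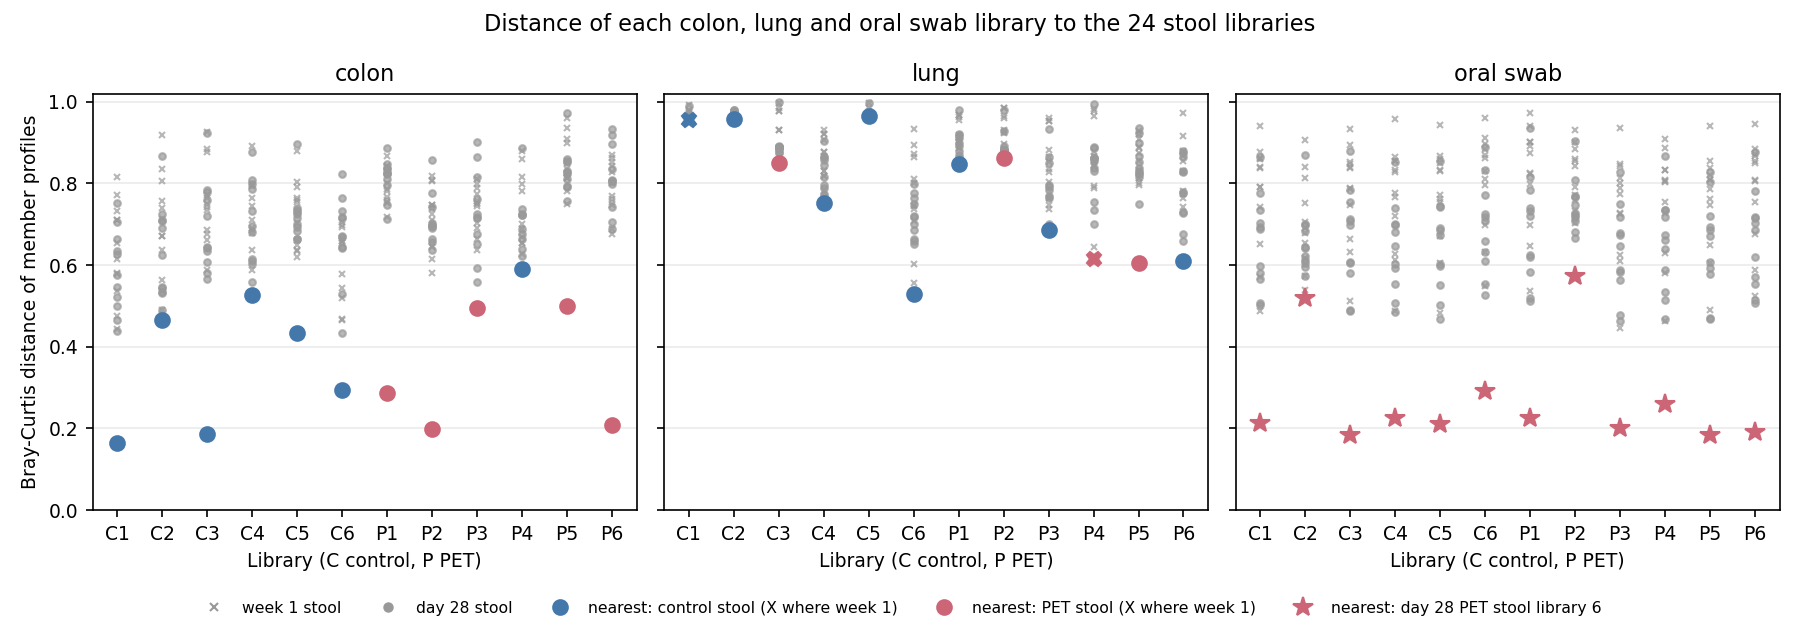
Bray-Curtis distance of member make-up (0 identical, 1 no overlap) from each colon, lung and oral swab library to each of the 24 stool libraries (grey: crosses week 1, circles day 28), with the nearest coloured by its arm and a star where it is day 28 PET stool library 6. Of 12 colon libraries 11 have their nearest stool library in their own arm, and 6 have it under 0.3. Lung libraries have none under 0.528, and all 12 oral swabs have the star as nearest, 10 of them under 0.3.

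The mouth was uniform and resembled 1 stool library. Oral swabs differed from each other by a median distance of 0.273 (0.160 to 0.638), against 0.663 and 0.664 within stool and 0.858 within lung. All 12, of both arms, had day 28 stool PET library 6 as the nearest stool library, at 0.184 to 0.572 with a median of 0.219. The second nearest was at a median of 0.487 (0.447 to 0.667), which is also the distance to stool when that library is left out. The exceptions above 0.3 were control library 2 at 0.519 and PET library 2 at 0.572. With the NK4A136 group alone or the unnamed Lachnospiraceae alone, 11 of 12 swabs had the same nearest library. With features outside the family the nearest was week 1 PET stool library 6 in 8 of 12, but at 0.864 to 0.987 over all swabs. Swabs and stool differed widely there: Muribacter, a genus outside the family, was 50.7% of oral swab and 0.0217% of day 28 stool counts. Whether the likeness is particular to the members was therefore not tested.

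The likeness can be read feature by feature. NK4A136 feature 4 was 12.8% ± 3.91 (SD, n = 12) of the member counts of oral swabs and 13.4% in day 28 stool PET library 6, against a median of 0.578% in the other 23 stool libraries. Unnamed feature 8 was 8.70% ± 2.90 in oral swabs, where all 12 held it, and 12.2% in that library, but it was in only 4 of the other 23 stool libraries and in 0 of 12 lung libraries. Unnamed feature 7 was 5.002% ± 1.85 and 6.48%, with a median of 0.0216% elsewhere in stool, and NK4A136 feature 8 was 4.52% ± 1.504 and 4.24%, with a median of 0.145%. Unnamed feature 1 was 25.7% ± 5.86 and 25.5%, with a median of 11.01% in the other stool. Single libraries among the other 23 reached such levels too. The highest were 18.9% for NK4A136 feature 4, 16.4% for NK4A136 feature 8, 6.68% for unnamed feature 7 and 27.8% for unnamed feature 1. For unnamed feature 8 the highest was 4.88%. Library 6 was picked as nearest from these same values, so the agreement by feature describes the likeness and is no further support for it. Of the 10 features highest in oral swabs, unnamed feature 42 did not share the likeness, at 3.78% ± 8.51 in oral swabs through 5 libraries (highest 29.6%) and at 0 in that stool library. In these swabs the members were 1.36% of prokaryote counts on average, and the source of the likeness was not tested.

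**Figure D5:**
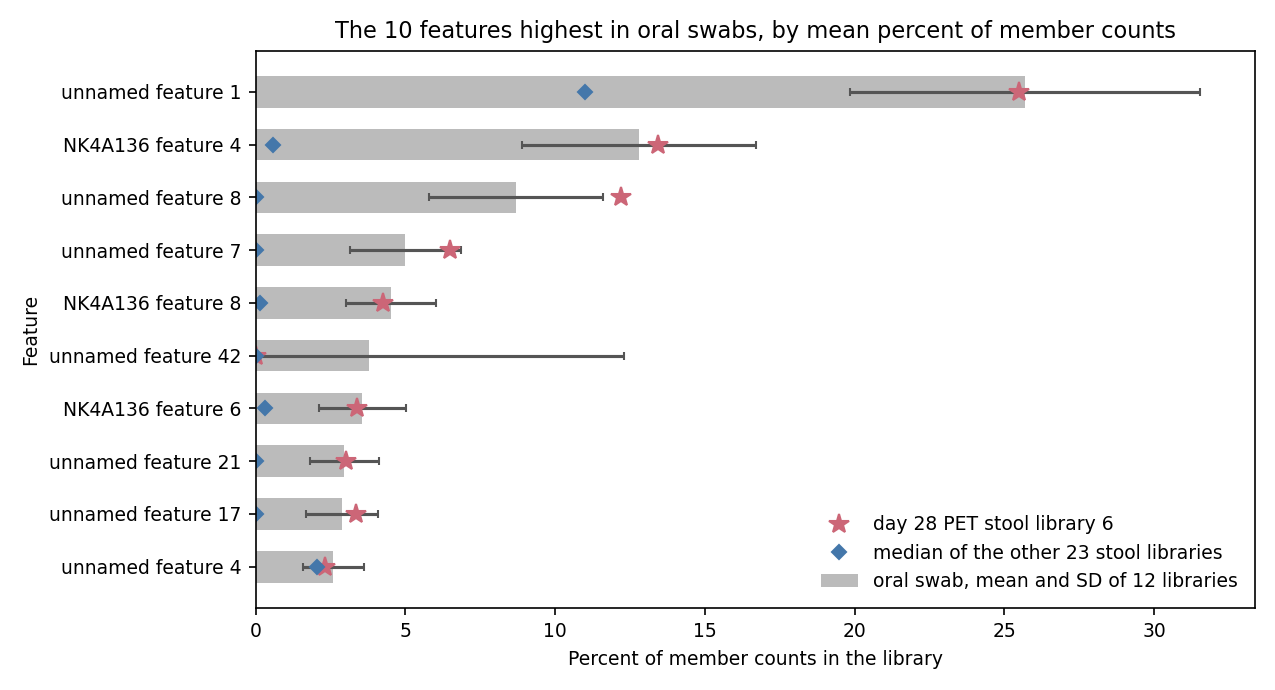
The 10 member features with the highest mean percent of member counts in oral swabs (bars with SD, n = 12), beside the same percent in day 28 stool PET library 6 (red stars) and the median of the other 23 stool libraries (blue diamonds). The stars follow the bars, lying outside 1 SD for unnamed feature 8 (12.2% against 8.70%), while the diamonds of most lie near 0; unnamed feature 42 is at 0 in the stool library.

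Some members were found in lung and hardly in stool, and most of those named here were also seen in colon or mouth. This does not hold for lung members at large. Of the 100 seen in lung 51 were also in stool, and 48 were in neither stool nor colon. Lung and oral swab shared 50 members, of which 36 were seen in all 4 sites. The unnamed feature with the largest bound was in 4 lung libraries with a mean of 0.0575%, at 0 in all stool, colon and oral swab libraries, and at least 989-fold over the floor of day 28 stool (adjusted p = 0.000183, edgeR). NK4A136 feature 69 was in 6 lung libraries at a mean of 0.0494% (at least 850-fold, adjusted p = 0.000202) and NK4A136 feature 67 in 5 (at least 465-fold, adjusted p = 0.000230). Each of these features was at 0 in all 12 day 28 stool libraries, so it met the filter on low counts only through lung. NK4A136 feature 34 had the highest lung mean of its group, 0.218% ± 0.587 (SD, n = 12), but 92.2% of those counts were in control library 2, where it stood at 2.06%. NK4A136 feature 54 was in 7 lung libraries at 0.0839% ± 0.142 and unnamed feature 42 in 7 at 0.116% ± 0.156. Both were near 0 in stool, with 1 and 2 of 24 libraries. They were not confined to lung: NK4A136 feature 54 was also in 3 colon libraries, up to 0.955%, and in 6 swabs, and unnamed feature 42 in 3 colon libraries and in 5 swabs, up to 0.590%. NK4A136 feature 34 was in 2 colon libraries and 5 swabs, and NK4A136 feature 69 in 2 of each.

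The features higher in mouth than in stool came from this same set. All 5 that passed, unnamed feature 147 (in 9 of 12 swabs), NK4A136 feature 67 (in 4), NK4A136 feature 54, unnamed feature 42 and NK4A136 feature 34, had also passed as higher in lung, where the comparison used the same stool libraries. Unnamed feature 147 lay at least 122.8-fold over the stool floor in oral swab (mean 0.00714%), at least 643-fold in lung (mean 0.0374%) and, as given above, at least 170-fold in colon. It and NK4A136 feature 67 were at 0 in day 28 stool, so both met the filter on low counts only through the other site. Of the features lower in mouth, unnamed feature 27 was in all 12 day 28 stool libraries and in no swab, at least 1003-fold higher in stool (adjusted p = 0.000269, edgeR), and unnamed feature 23 was in 11 of 12 and in no swab, at least 902-fold. Unnamed feature 15, at least 2284-fold, and NK4A136 feature 37, at least 1594-fold, were higher in stool with less even presence. None of these lower features had a count in swabs, so each met the filter only through stool. Members missing from the swabs included some that nearly every stool library held.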

How the data were processed

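The authors deposited 1 table of counts per sequence feature and library and 1 table of lineages, each with a classifier confidence as a fraction; per the submitters' processing notes the tools included cutadapt and Bowtie2 with the mouse genome GRCm39, without versions. The sources used here do not say how features were called, or with which classifier and database lineages were assigned. Every count column was matched to 1 library by its label.

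Features were taken as prokaryote by lineage (7922 of 8574; 619 features had no lineage), and shares are percent of those counts. Depth ran from 10543 to 1083575 counts. Comparisons used edgeR 4.0.16 in R 4.3.3 (TMM, quasi-likelihood F test, features with at least 10 counts in all and present in at least 3 libraries of the fit, Benjamini-Hochberg over all features tested, threshold 0.05), at feature level and with counts summed by genus. Site comparisons held the arm as a term. SE is the log2 difference over the square root of F. Folds against a group at 0 are bounds from 3 counts over that group's total. DESeq2 1.42.0, other scalings, filters and left-out libraries were the alternatives. The code was tested on simulated counts. Distances used Python 3.11.15.

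Named features were the 6 most abundant of each taxon in stool, the 3 most abundant in each other site, and those that passed, by fold up to a set number; unnamed feature 86, NK4A136 features 25, 36 and 38 and unnamed features 17 and 21 were added after their values were seen. The members and lists were chosen with earlier results of these data known. No sequence letters are printed because the files used here pair none with the features.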

Additional observations from a re-analysis of the deposited data

Results flagged for a closer look

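In groups of 6 libraries, 9 of 30 summed shares and feature numbers held a library farther from the rest than Dixon's test allows. Chance gives about 1 in 20 groups where values are normally distributed and groups independent. Here the values were not transformed, all 9 lay at the high end, and the measures share libraries. The 9 of 30 can therefore not be read as an excess over that rate. For the NK4A136 share these were week 1 stool PET library 5 at 14.98% (others 4.42% to 8.36%), day 28 stool control library 5 at 13.3% (5.63% to 8.26%), oral control library 2 at 0.563% (0.256% to 0.353%) and oral PET library 5 at 1.46% (0.0877% to 0.427%). For the unnamed share they were colon PET library 2 at 20.04% (0.375% to 5.68%), lung control library 6 at 2.11% (0.373% to 0.940%) and oral control library 2 at 1.77% (0.364% to 0.864%). The number of member features at a depth of 10000 counts was 159.6 in week 1 stool PET library 6 (others 74.9 to 91.9) and 46.97 in oral control library 2 (17.97 to 27.5). Among the 5 colon features 4 met it too, but these were chosen as present in 3 libraries of 1 arm, so their number is not set against chance. NK4A136 feature 10 stood at 5.11% and unnamed feature 82 at 0.574% in colon PET library 2, and NK4A136 feature 9 at 5.73% and unnamed feature 20 at 0.918% in colon control library 3. Oral control library 2 met the criterion in 3 values, and colon PET library 2 and colon control library 3 in 3 and 2.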

How the results depend on the processing

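Of 366 alternative values for the comparisons, 300 kept their direction and side of the threshold; for single named features 217 of 250 did, and the other 33 no longer passed. No paired analysis was possible because the labels link no library to an animal. DESeq2 called 2 members for PET in week 1 stool, 4 in day 28 stool and 3 in colon, 22 and 10 over time in controls and PET mice, 20 in their difference and 14 between colon and stool. Without the filter on low counts edgeR called 9, 14, 2, 6, 1, 4 and 12, and 198 for oral swab against stool. The strict filter (50 counts, 6 libraries) left 0 for PET in colon, and 5, 99 and 48 for colon, lung and oral swab against stool, since fewer features were tested. Control libraries alone (fewer libraries) gave 0, 72 and 18, and plain library totals 166 for oral swab. Without the second number series 12 members passed between colon and stool, and without Helicobacter counts 2 passed for PET in colon.

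The sign of several genus values that did not pass in the main setting turned. For PET in colon the NK4A136 group was -0.11 with TMMwsp, and the unnamed Lachnospiraceae -0.63 with the same scaling, -0.069 with plain totals and -0.19 in DESeq2. For PET in day 28 stool the unnamed value was 0.020 with DESeq2. In oral swab library totals gave 0.33 and 0.37. Over time the NK4A136 value of PET mice was -0.19 with both arms averaged (added after seeing the data), and the unnamed difference between arms 0.18 with DESeq2. For colon against stool the NK4A136 value was -0.37 (TMMwsp), -0.89 (plain totals), -0.88 (DESeq2) and -0.52 (controls alone). The unnamed value was -0.96, -1.31, -1.39 and -0.93 in the same settings, -0.51 without the second number series and -0.28 without Helicobacter. For oral swab against stool the unnamed value passed at -2.67, -3.71 and -3.34 with the first 3 of these. The cause was not tested. With a classifier confidence of at least 0.9 the NK4A136 share was 5.22% in week 1 and 4.64% in day 28 stool.

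Leaving out 1 library at a time gave 0 to 1 called members for PET in week 1 stool and 1 to 4 in colon. Genus values ranged from -0.18 to 0.34 (unnamed, week 1 stool), -0.22 to 0.95 (NK4A136, colon), -1.62 to 0.77 (unnamed, colon), -2.25 to 0.65 (NK4A136, lung), -0.31 to 0.047 (NK4A136, oral swab) and -0.31 to 0.26 (unnamed, oral swab), and none of these passed. Depth and detection left 17 members that could be tested in lung.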

Other observations

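The running numbers of the libraries put each group in an order. In 8 of 12 colon libraries the nearest stool library by member make-up stood at the same place in the number order of the day 28 stool group of its arm (7 of 12 by the NK4A136 group alone, 8 by the unnamed Lachnospiraceae alone, 2 by features outside the family). The features outside the family take in Helicobacter, so their count is not a like comparison. For lung and for oral swab the same place was met in 1 of 12 each by member make-up. No label says that the order carries the animal, so no pairing was made from it.

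Of the 100 members seen in lung, 48 were in neither stool nor colon, and of the 166 seen in oral swab 40 were in neither. Lung and oral swab shared 50 members (50% of lung's and 30.1% of oral swab's). The same was not counted over all features. Oral PET library 5 had the highest member share of the swabs, 4.70%, with Helicobacter at 0.859%.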
